A study of Sus scrofa with 4 samples.

Results

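The families described here are 55 conserved miRNA families whose family number stands nowhere in the table of annotated pig miRNAs of the same hippocampus libraries, out of 278 families in the table of conserved sequences. They were chosen by name and by their summed reads: the digits after "mir-" had to match none of the 204 numbers in the annotated table, and the family needed 50 or more reads over 4 libraries. The families mir-8, mir-375, mir-1271, mir-1298, mir-448 and mir-449 are left out by the same rule. Of 120 families that met the rule on names, 55 reached the minimum and 65 did not. Just inside it stood mir-263 with 82.5 reads, mir-1912 with 73 and mir-1273 with 59, and just outside it mir-3607 with 41, mir-71 with 34 and mir-3064 with 34.

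Small RNA was sequenced from the hippocampus of newborn Rongchang piglets, with the genotype given as "wide type" in the labels. All 8 animals (4 females and 4 males) were littermates, of which 4 were untreated controls and 4 received 200 mg iron dextran, an injectable iron complex, into the muscle on days 3 and 4 after birth. The labels describe the hippocampus of the iron groups as "induced by oxidative stress". Ventral and dorsal hippocampus were collected apart and the tissue of each group was mixed, which gave 4 pooled libraries. Where 4 values are listed with no library named, their order is ventral then dorsal for the controls, then the same for iron. No group has a replicate, how many piglets entered a pool is not given, and both regions of a treatment come from the same animals. The libraries held between 11136618 and 13661160.7 reads in rows with a family name. The families described here took 5.28% of these reads in ventral controls (exact Clopper-Pearson 95% interval 5.27 to 5.29) and 5.25% in dorsal controls (5.24 to 5.26). After iron they took 4.88% in ventral (4.87 to 4.90) and 5.18% in dorsal hippocampus (5.17 to 5.19). These and all later intervals cover counting error only, and amplified reads without molecular identifiers are not independent molecules. Markers of brain tissue were present in each library: mir-9 stood between 184236 and 214343 CPM (reads per 1e6 family reads after TMM scaling) and the neuronal mir-124 between 30474 and 38808 CPM.

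A miRNA is cut from a hairpin precursor, and either strand of the hairpin stem can yield a mature molecule, called the 5p and the 3p arm. Bases 2 to 8 of the mature molecule, the seed, pair with target messenger RNAs, so molecules with one seed form a family even across distant species. miRNA databases group hairpins by ancestry, and such a group carries the number of 1 member, so a family and the miRNAs in it often have different numbers. A large imprinted cluster between DLK1 and DIO3, expressed from the maternal chromosome and abundant in brain, supplies many of the numbers met below. Databases also list hairpins read from the opposite strand of a known miRNA gene, under numbers of their own.

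The label of these families as missing from the pig annotation held for only some of them. In 7 families (mir-154, mir-379, mir-25, mir-322, mir-188, mir-368 and mir-1273) at least 25% of the reads stood in rows whose own miRNA number is in the annotated pig table or that list the pig, and these took 65.7% of the 55 families' reads. In 8 families (mir-3529, mir-3074, mir-2957, mir-3596, mir-3065, mir-3578, mir-3604 and mir-3556) at least 50% of the reads stood in rows that are the reverse complement of a pig-annotated row over 18 or more bases, and these took 21.92%. Another 3, mir-276, mir-2 and mir-263, carry names known from invertebrates and took 0.01%. The other 37 families had no such counterpart and took 12.36% of the reads, with a median of 4144 reads per family against 76022 in the 7 and 11959.6 in the 8. These classes and their limits were set after the values were seen. None of the 315 miRNA genes of the pig in RefSeq (assembly Sscrofa11.1) carries the number of any of the 55. The families were chosen by absence of that number from pig names, and the numbers of the miRNAs inside them were not looked up there. This therefore says little about whether the pig has these miRNAs.

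The sequences of the leading row of the 8 families with most reads show what these names stand for. Capitals mark the seed, and row names begin with the database's species code.
mir-154, cgr-miR-409-5p: aGGUUACCcgagcaacuuugcauc
mir-379, ssc-miR-758: uUUGUGACcugguccacuaac
mir-25, dre-miR-92b-3p: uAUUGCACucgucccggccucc
mir-3529, hsa-miR-3529-3p: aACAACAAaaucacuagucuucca
mir-3074, hsa-miR-3074-5p: gUUCCUGCugaacugagccag
mir-322, hsa-miR-424-5p: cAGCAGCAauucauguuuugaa
mir-329, efu-miR-495: aAACAAACauggugcacuucuuu
mir-2957, bta-miR-2957: cCAAGUUCugucaugcacuga
None of these 8 rows carries the number of its family except those of mir-3529, mir-3074 and mir-2957. Over all 55, the leading row was 18 to 25 bases long with a median of 22, and 25 began with U, the base most common at the start of mature miRNAs. The leading rows of 7 families shared their seed with a row listing the pig, 5 of them in the families that hold annotated pig numbers. Among the 37 families with no counterpart this was the case for mir-454 alone, which shares the seed of mir-130.

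**Figure D1:**
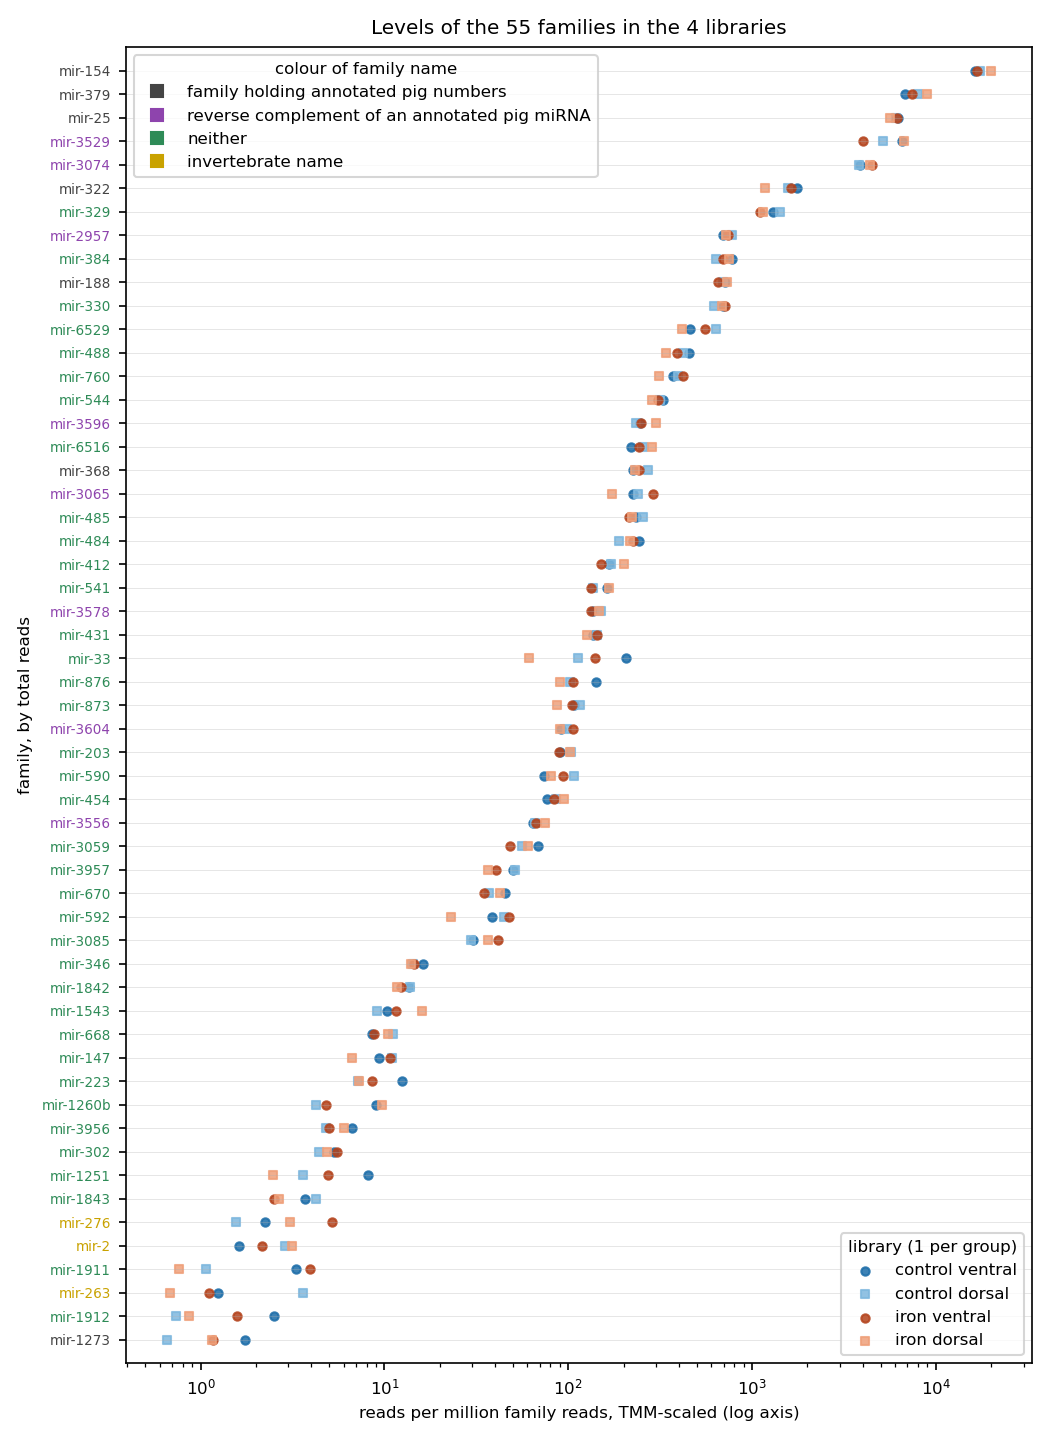
Levels of the 55 families in the 4 libraries, in counts per 1e6 after TMM scaling on a log axis, ordered by total reads, with 1 point per library and the family name coloured by class. The families holding annotated pig numbers and the reverse-complement families fill most of the top rows, and the 4 points of a family lie apart mainly at the bottom, where reads are few, and for mir-33.

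The most abundant family, mir-154, was a mixture of miRNAs of the imprinted cluster. It stood at 16349 CPM in ventral and 17460 in dorsal controls, and at 16817 in ventral and 19891 in dorsal hippocampus after iron. The highest level was 1.22 times the lowest. Of its 856049.9 reads 34.95% were miR-409, 16.52% miR-323, 12.82% miR-3958, 10.75% miR-410 and 6.25% miR-656. The miRNA that names the family, miR-154, had 790 reads or 0.09%. Rows with annotated pig numbers (miR-323, miR-369, miR-382, miR-487 and miR-381) made up 28.2% of the family, so most of it, led by miR-409 with 299159 reads, lay outside the annotated table. The 5p arm took 63.0% of the miR-409 reads with an arm in control ventral (exact 95% interval 62.6 to 63.3), 63.0% in control dorsal (62.7 to 63.4), 66.8% in iron ventral (66.4 to 67.2) and 70.9% in iron dorsal (70.6 to 71.3), the highest of the 4. Over the libraries 12.2% of the miR-409 reads had no arm assigned, which these intervals do not cover.

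The family mir-379, from the same cluster, stood at 6809, 8002, 7419 and 8950 CPM. Its lowest level was in control ventral and its highest in iron dorsal, as for mir-154, which was lowest in iron ventral when scaled by total family reads. The highest over lowest ratio of mir-379 was 1.31. The annotated numbers miR-411 (29.68%) and miR-758 (25.75%) led it, followed by miR-1197 (19.21%), miR-3959 (14.91%) and miR-380 (10.13%), which have no annotated number, and miR-379 itself had 0.31%. The family mir-368 was in effect miR-376, an annotated number with 99.93% of its reads, and ranged from 225 CPM in control ventral to 270 in control dorsal, with iron dorsal the lowest when scaled by total family reads.

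Outside this cluster, mir-25 was made of miR-92 (89.51%, annotated), miR-25 (10.38%) and 2 rows of miR-235, and groups hairpins of the cell-proliferation clusters related to mir-17. Its levels of 6236, 6052, 6126 and 5617 CPM were the most even of the 15 most abundant families, with a highest over lowest ratio of 1.11. Scaled by total family reads this ratio was 1.24, above that of mir-154 (1.12), mir-3074 (1.13) and other families. The family mir-322, of which 97.96% was the annotated miR-424, known for its role in cell-cycle exit and differentiation, stood at 1754, 1561, 1635 and 1179 CPM, lowest in iron dorsal. The family mir-188, from a cluster on the X chromosome, held miR-532 (63.65%, annotated), miR-660 (25.85%) and miR-188 (10.5%) at 716, 695, 652 and 729 CPM. The family mir-1273 was 1 row named ssc-miR-1285, a pig name, with 59 reads.

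**Figure D2:**
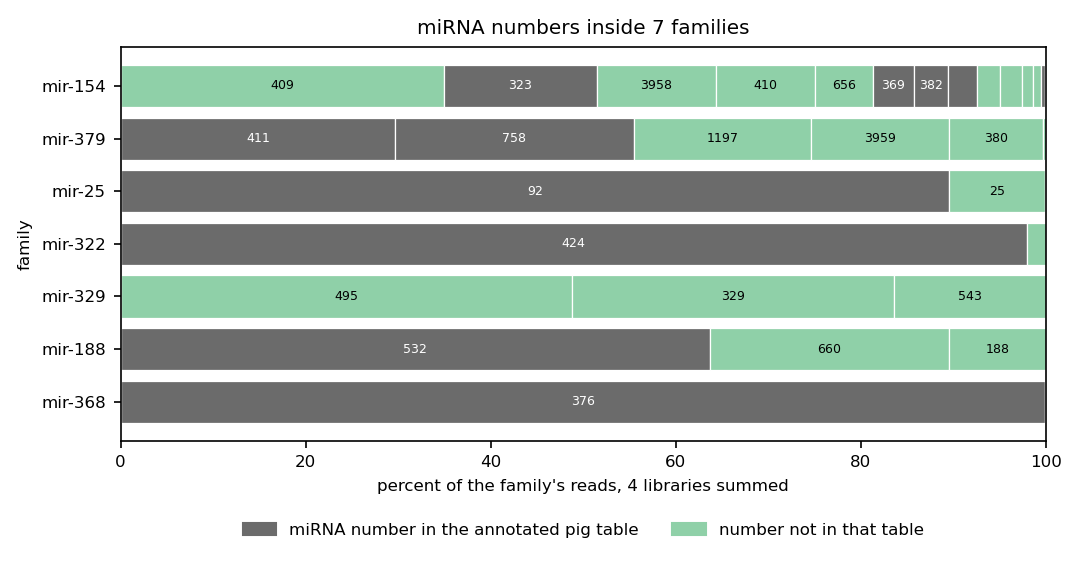
Share of each miRNA number in the reads of 7 families, in percent of the family's reads over the 4 libraries, with grey for numbers in the annotated pig table and green for others. In mir-25, mir-322 and mir-368 the annotated share is 89.51% or more, in mir-154 it is 28.2%, and mir-329 has none.

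Among the 8 reverse-complement families, rows that are exact reverse complements could not be told apart by their reads from the rows they face. For mir-3529, whose row is the exact reverse complement of the pig row of miR-7, a miRNA of neurons and endocrine cells, the 2 rows had the same reads in each library to within 0.1 reads: 93292.4 in ventral and 62958.8 in dorsal controls, and 47849.3 in ventral and 70388.6 in dorsal hippocampus after iron. The same equality held for mir-2957 and a miR-152-3p row, mir-3604 and a miR-199a-3p row, and mir-3596 and a let-7e row, with 35825.2, 4710.2 and 12507.5 reads summed over the libraries on either side. For mir-3065 and a row of miR-338-3p, an oligodendrocyte miRNA, the 2 rows differed by up to 3.33 reads, with ratios between 0.99961 and 1.0011. The partners of 5 of these families are shown to be read against the rows above or beside them.
miR-7, ssc-miR-7: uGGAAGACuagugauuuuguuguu
miR-152, mmu-miR-152-3p: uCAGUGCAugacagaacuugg
mir-3065, hsa-miR-3065-5p: uCAACAAAaucacugaugcugga
miR-338, rno-miR-338-3p: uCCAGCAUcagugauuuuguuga
mir-3604, bta-miR-3604: uAACCAAUgugcagacuacugu
miR-199a, mmu-miR-199a-3p: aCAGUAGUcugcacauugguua
miR-24, hsa-miR-24-3p: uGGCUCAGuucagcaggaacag

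Where the rows overlap over part of their length, the reads were unequal. The leading row of mir-3074 overlaps miR-24-3p over 20 bases, and its reads were 0.605, 0.583, 0.620 and 0.704 of those of the miR-24-3p row. The row of mir-3556 overlaps a miR-29a row over 18 bases, with ratios from 0.206 to 0.218. In mir-3578 the rows face miRNAs of the imprinted cluster: rno-miR-3592 is the exact reverse complement of miR-382-3p and rno-miR-3578 that of miR-369-5p, each with equal reads on both sides in each library. The labels and headers do not say how reads were assigned to strands, so reads of a miRNA and of its opposite strand cannot be told apart in these values.

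Against the annotated table, mir-3529 held 12.94%, 14.04%, 13.52% and 12.57% of the reads of the annotated miR-7 row, and mir-3074 held 30.57%, 30.64%, 31.07% and 31.48% of those of miR-24-3p. For mir-3596 the shares of the annotated let-7e row were 9.86%, 8.47%, 9.14% and 10.67%. Its log2 ratio of iron to control in dorsal hippocampus was 0.37, against 0.04 for that row. The levels of mir-3529 were 6535, 5161, 3988 and 6734 CPM, lowest in iron ventral and highest in iron dorsal, or highest in control ventral when scaled by total family reads. Those of mir-3074 were 3880, 3819, 4478 and 4374 CPM, both iron libraries above both control libraries, by 1.17 times from the lowest to the highest. The remaining abundant family of this kind, mir-2957, stood at 692, 780, 744 and 718 CPM.

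**Figure D3:**
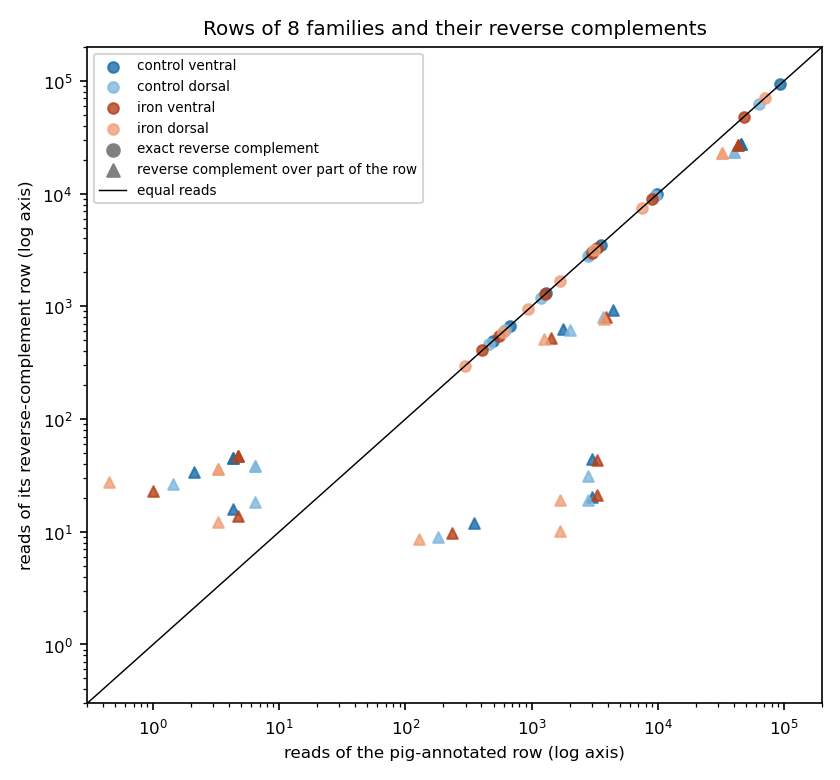
Reads of the rows of the 8 reverse-complement families (vertical, log axis) against reads of the pig-annotated row they face (horizontal, log axis), 1 point per row and library. Circles, exact reverse complements, lie on the line of equal reads at up to 93292 reads, and triangles, which overlap over part of the row, lie off it.

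Among the 37 families with no counterpart in the annotated table, mir-329 was the most abundant. It comprises miR-495 (48.73%), miR-329 (34.81%) and miR-543 (16.46%), all of the imprinted cluster, and stood at 1301, 1415, 1100 and 1153 CPM. Both iron libraries lay below both control libraries. The ratio of iron to control was 0.845 (95% interval 0.826 to 0.864) in ventral and 0.814 (0.796 to 0.834) in dorsal hippocampus, neither near 2-fold.

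Next came mir-384, a brain-expressed miRNA, at 779, 637, 694 and 745 CPM, and mir-330 at 692, 620, 711 and 686 CPM. The family mir-6529, named in cattle, stood at 460, 639, 558 and 417 CPM, so that dorsal exceeded ventral hippocampus in controls and fell short of it after iron. The highest of these 4 levels was 1.53 times the lowest.

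The neuronal mir-488 had 454, 420, 388 and 340 CPM, with both iron libraries below both control libraries. The family mir-760 had 373, 395, 420 and 313 CPM and was lowest in iron dorsal. The family mir-544, from the imprinted cluster, had 330, 315, 307 and 286 CPM, a highest over lowest ratio of 1.15.

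Further down, 4 families of the imprinted cluster held between 127 and 254 CPM: mir-485 at 234, 254, 215 and 222, mir-412 at 166, 170, 151 and 201, mir-541 at 162, 137, 133 and 168, and mir-431 at 136, 143, 144 and 127 CPM. None of them had a highest over lowest ratio above 1.33. The neuronal mir-876 stood at 142, 103, 107 and 90.7 CPM and mir-873, its neighbour in the human genome, at 108, 115, 105 and 87.4 CPM, both lowest in iron dorsal. The ubiquitous mir-484 had 244, 188, 224 and 216 CPM and mir-6516 had 219, 256, 243 and 286 CPM.

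Families known from other tissues were detected at low levels. The keratinocyte mir-203 stood at 90.3, 104, 88.6 and 102 CPM, the myeloid mir-223 at 12.4, 7.21, 8.58 and 7.27 CPM, and mir-302, known from embryonic stem cells, at 5.32, 4.43, 5.50 and 4.88 CPM. Of these, mir-223 was highest in control ventral, and mir-203 and mir-302 varied by at most 1.24 times.

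Among less abundant families, some had both iron libraries on one side of both controls. This order, in one direction or the other, also stood in mir-3074, mir-329, mir-488, mir-544, mir-485, mir-873, mir-3596, mir-3556, mir-1842, mir-1843, mir-276 and mir-263. Scaled by total family reads, mir-3596 and mir-3556 lost it, and mir-25, mir-188, mir-3578, mir-3059 and mir-346 gained it. How often this order stands over all families tested was not counted, so the list carries no result about these families. The family mir-3085 was higher after iron, with 41.7 and 36.5 CPM in ventral and dorsal hippocampus against 30.4 and 29.4 in controls, and mir-3957 was lower, with 40.4 and 36.6 against 50.2 and 51.6. In mir-1543 both iron libraries also lay above both controls, with iron dorsal at 16.1 CPM against 9.10 to 11.5 in the other 3 libraries. None of the differences in mir-3085, mir-3957 and mir-1543 reached 2-fold.

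The use of the hairpin arms, a share that no scaling between libraries can move, differed between libraries in several of these families. For miR-330 the 5p arm took 39.8% of reads in control ventral (exact 95% interval 38.8 to 40.8), 35.2% in control dorsal (34.1 to 36.3), 30.6% in iron ventral (29.7 to 31.6) and 26.7% in iron dorsal (25.7 to 27.7). The 4 intervals did not overlap, and both iron libraries lay below both control libraries. For miR-488 the 5p share was 4.5% (4.04 to 5.07), 3.9% (3.41 to 4.49) and 4.3% (3.77 to 4.96) in the same order and 8.8% (7.91 to 9.81) in iron dorsal, which stood apart. For miR-876, a neuronal miRNA, it was 69.2% (67.1 to 71.2) in control ventral and 66.0% (63.3 to 68.6) in iron ventral. In control dorsal it was 56.5% (53.7 to 59.3) and in iron dorsal 56.1% (52.9 to 59.3). The ventral and dorsal libraries thus differed by more than counting error, which without replicates compares libraries and not regions. The miRNAs miR-330, miR-488 and miR-876 were picked after the values were seen. In others the 4 intervals overlapped, as for miR-203 at 33.9%, 33.3%, 32.3% and 31.6% and miR-541 at 85.4%, 84.7%, 84.3% and 86.5%. Some intervals also lay apart in miR-369, miR-377, miR-381 and miR-411. How many of all miRNAs with both arms had intervals apart was not counted, so the picked miRNAs are not shown to be unusual. The spread between piglets is unknown for these shares, and rows that share reads between near-identical sequences can move them.

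Levels between libraries were compared in 4 pairs, for 206 families with 50 or more reads. A family was counted when the ratio of its scaled reads was at least 2-fold and its exact conditional binomial 95% interval excluded 1. Each ratio compares 2 pooled libraries, not 2 conditions, so no p-value belongs to it. In bulk tissue, fewer cells of a type and less RNA per cell cannot be told apart. Most of the 55 families moved little: the highest level was under 1.5 times the lowest in 37 of them and 2 or more times in 9, with a median of 1.32 against 1.36 over all families tested. As shares, 16.4% of the 55 and 11.7% of all families tested reached a highest over lowest ratio of 2.

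Iron against control in ventral hippocampus gave 1 higher family, mir-276, and 0 lower ones among the 55. Over all families tested 0.485% were counted higher and 2.43% lower. The median log2 ratio of the 55 was -0.04 against 0.01 over all families tested, with 25 above and 30 below equality. In dorsal hippocampus 1 was counted higher, mir-1260b, and 1 lower, mir-263, where 1.46% of all families tested were counted higher and 2.43% lower. The median was -0.03 against -0.04.

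Dorsal against ventral hippocampus in controls gave 1 higher family, mir-263, and 5 lower ones, mir-1912, mir-1911, mir-1273, mir-1251 and mir-1260b. That is 1.82% and 9.09% of the 55, where 0.971% of all families tested were counted higher and 4.37% lower. After iron, 0 were counted higher and 3 lower (5.45%), mir-1911, mir-33 and mir-592, where 0.485% and 4.37% of all families tested were. The medians of the 55 were -0.02 in controls and -0.05 after iron, against -0.04 and -0.05 over all families tested. The 4 pairs share libraries, so their counts are not independent of each other. The counts in controls also rest in part on the minimum of 50 reads, which was applied to reads summed over the libraries. Without their control ventral reads, mir-1273 (25 of 59 reads) and mir-1912 (36 of 73) would fall below it. So would mir-263 (82.5 reads) without its 44.3 reads in control dorsal, which also bears on its count for iron. How many of all families tested passed the minimum in this way was not counted.

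Of the families counted in any pair, mir-33 and mir-592 were the only ones with 500 or more reads in all, and the rest had 59 to 340 reads. With the minimum raised to 500 reads, which leaves 41 of the 55, or to 10 CPM in at least 1 library, which leaves 44, no family was counted in the first 3 pairs.

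**Figure D4:**
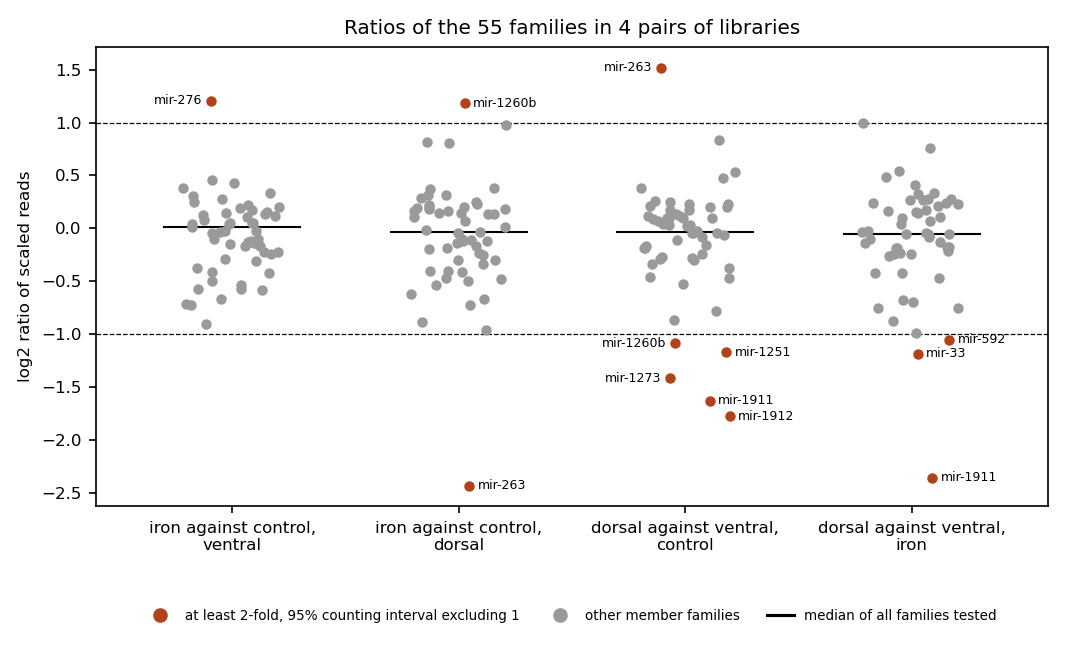
Log2 ratios of scaled reads of the 55 families in the 4 pairs of libraries, with counted families in red and named, and the median of all 206 families tested as a black bar. Dashed lines mark 2-fold, and most points lie between them, with 5 families counted lower in dorsal than in ventral controls and 3 after iron.

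The edgeR quasi-likelihood test over all 4 libraries, with region and treatment as additive terms and Benjamini-Hochberg adjustment, called 0 of the 55 for iron and 0 for region at an adjusted p under 0.05, and 0.0% of all 206 families tested for iron and 0.0% for region. It leaves 1 residual degree of freedom. At an unadjusted p under 0.05 stood 9 families for iron, 2 of them (mir-33 and mir-276) among the 55, and 6 for region, 3 of them (mir-33, mir-1911 and mir-1251) among the 55. The DESeq2 Wald test and limma-trend also called 0 of the 206 families for either term. Scaled by total family reads instead of TMM, edgeR called mir-1911 (log2 -2.01, adjusted p = 0.00146) and mir-33 (log2 -1.08, adjusted p = 0.00252) lower in dorsal hippocampus. These are 3.64% of the 55, where 3.4% of all families tested were called for region in that fit. For iron it called 0 of the 55 and 1.94% of all families tested.

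The family mir-33 lies in human within genes of the sterol-sensing SREBP factors and represses cholesterol efflux. Its leading row and those of the other counted families with vertebrate names, apart from mir-1273, are shown because these families were counted in a pair. The rows of mir-33, mir-592, mir-1251 and mir-1912 were picked for display after their values were seen.
mir-33, hsa-miR-33a-5p: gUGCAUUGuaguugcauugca
mir-592, mmu-miR-592-5p: aUUGUGUCaauaugcgaugaugu
mir-1251, hsa-miR-1251-5p: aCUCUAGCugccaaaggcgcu
mir-1911, mml-miR-1911-5p: uGAGUACCgccaugucuguugg
mir-1912, eca-miR-1912: uACCCAGAgcgugcagugugaa
mir-1260b, ggo-miR-1260b: aUCCCACCacugccacca

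The mir-33 level was 206.2 CPM (2943 reads) in ventral and 113 (1381 reads) in dorsal controls. After iron it was 139 (1669 reads) in ventral and 61.3 (641 reads) in dorsal hippocampus. It was lower in dorsal than in ventral hippocampus under both treatments, and lower after iron in both regions. The dorsal level was 1.82-fold lower than the ventral one in controls (95% interval 1.71 to 1.94) and 2.27-fold lower after iron (2.07 to 2.49). After iron it was 1.48-fold lower in ventral (1.40 to 1.57) and 1.85-fold lower in dorsal hippocampus (1.68 to 2.03). In the edgeR quasi-likelihood test its log2 difference was -0.72 for iron (adjusted p = 0.89) and -1.02 for region (adjusted p = 0.954), with unadjusted p-values of 0.0247 and 0.0098. Both differences ran one way in 2 of 2 pairs.

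The family mir-592, a brain miRNA from an intron of a glutamate receptor gene in human, had 38.6, 44.8, 47.8 and 23.1 CPM (551, 547, 574 and 241 reads). Only iron dorsal stood apart, 2.07-fold lower than iron ventral (1.78 to 2.42) and 1.94-fold lower than control dorsal (1.67 to 2.27). In ventral hippocampus the iron library was higher by 1.24 times (1.10 to 1.40).

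The families mir-1911 and mir-1912 lie in human in the serotonin receptor gene HTR2C, which is strongly expressed in choroid plexus, together with mir-448 and mir-1298. The level of mir-1911 was 3.29 CPM (47 reads) in ventral and 1.07 (13 reads) in dorsal controls, and 3.92 (47 reads) in ventral and 0.765 (8 reads) in dorsal hippocampus after iron. Both ventral libraries lay above both dorsal ones, by 3.09-fold in controls (1.64 to 6.22) and 5.12-fold after iron (2.40 to 12.5), and the intervals of the iron ratios included 1 in both regions. For mir-1912 the reads were 36, 9, 19 and 9 and the levels 2.52, 0.738, 1.58 and 0.861 CPM. It was 3.42-fold lower in dorsal than in ventral controls (1.62 to 8.07), and the interval after iron, 0.793 to 4.62-fold lower, included 1.

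The 2 left-out families of the same human gene varied less. The level of mir-1298 was 97.4, 72.5, 103.6 and 51.0 CPM, and that of mir-448 was 26.1, 19.8, 23.8 and 18.6 CPM, each lower in dorsal than in ventral hippocampus under both treatments. The choroid plexus list also holds mir-204, at 272, 211, 193 and 180 CPM, and mir-449, at 210, 168, 186 and 92.1 CPM. All 3 markers of that list were lowest in iron dorsal and lower in dorsal than in ventral hippocampus under both treatments, as were mir-33, mir-1251 and mir-1911. The same held for mir-25, mir-322, mir-488, mir-544, mir-876 and mir-346, and for the markers mir-138, mir-451, mir-486, mir-8 and mir-375. It did not hold for mir-9, mir-124, mir-128, mir-219, mir-144, mir-223, mir-1 or mir-133. Nor did it hold for mir-1912, which was lowest in control dorsal. Iron dorsal was the lowest library in 20 of the 55 families and in 74 of the 206 tested. The part of the choroid plexus markers in these results was not tested.

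The family mir-1251 had 8.13, 3.61, 4.92 and 2.49 CPM (116, 44, 59 and 26 reads) and was 2.25-fold lower in dorsal than in ventral controls (1.58 to 3.26). After iron the dorsal level was 1.98-fold lower (1.23 to 3.27), just short of the limit, which it passed at 2.09-fold when scaled by total family reads. In ventral hippocampus the iron library was 1.65-fold lower (interval from 1.198 to 2.30). Its highest level was in ventral controls, a library that also stood apart in the epithelial mir-8, at 151 CPM against 13.9 to 18.4 CPM in the other 3, and in mir-183, at 90.6 against 11.4 to 13.9 CPM, a family outside the marker list that was looked at after its values were seen. The other marker of that list, the endocrine mir-375, stood at 125, 101, 88.3 and 42.4 CPM and was lowest in iron dorsal. The part of these markers in the values of mir-1251 was not tested.

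The family mir-1260b, whose 18-base leading row is questioned as a fragment of a transfer RNA, had 9.04, 4.26, 4.83 and 9.66 CPM (129, 52, 58 and 101 reads). It was 2.12-fold lower in dorsal than in ventral controls (1.53 to 2.98) and 2.27-fold higher in iron dorsal than in control dorsal (1.61 to 3.23). In ventral hippocampus the iron library was 1.87-fold lower (1.36 to 2.59), so the iron ratios ran in opposite directions. Its ratio of dorsal to ventral after iron passed the limit, at 2.02-fold higher, only with TMM over the annotated table. The family mir-1273, a name from repeats, had 25, 8, 14 and 12 reads and was 2.67-fold lower in dorsal than in ventral controls, with an interval from 1.17 to 6.85.

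**Figure D5:**
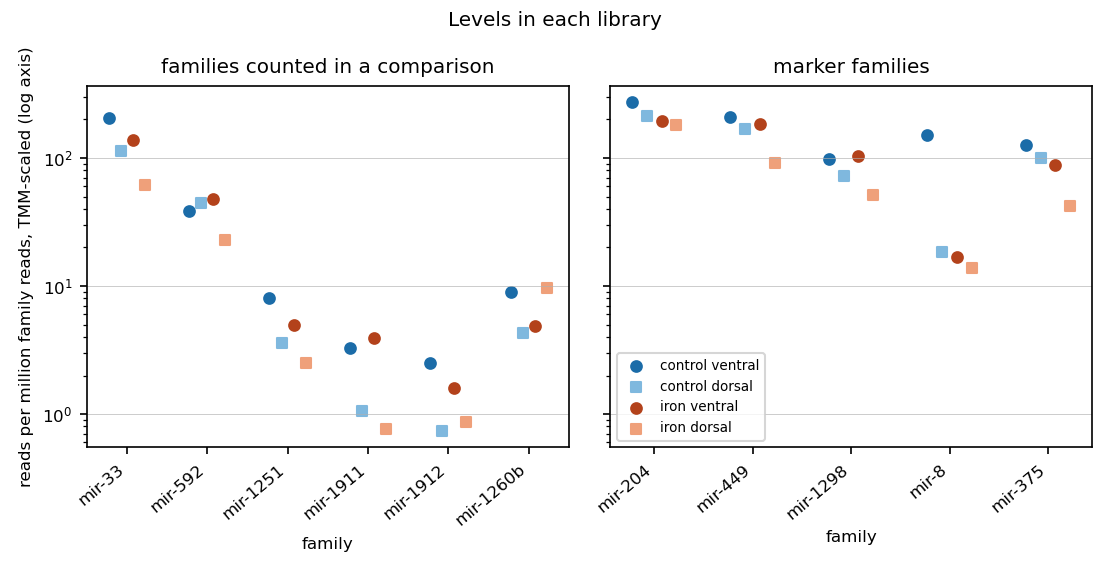
Levels in each library of 6 counted families (left) and of marker families of choroid plexus (mir-204, mir-449, mir-1298) and of epithelium and endocrine cells (mir-8, mir-375) (right), in counts per 1e6 on a log axis, 1 point per library. The dorsal points of mir-33, mir-1251, mir-1911 and mir-1912 lie below the ventral ones of the same treatment, and mir-8 is high in control ventral alone.

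The 3 families with invertebrate names had few reads. The family mir-276 had 32, 19, 62 and 32 reads, 2.31-fold higher after iron in ventral hippocampus (1.48 to 3.65) and 1.97-fold higher in dorsal (1.08 to 3.67). The family mir-263 had levels of 1.24, 3.63, 1.12 and 0.683 CPM, so control dorsal stood apart from the other 3. It was 2.86-fold higher in dorsal than in ventral controls (1.62 to 5.26) and 5.39-fold lower in iron dorsal than in control dorsal (2.41 to 14.2), a pair of differences that share the control dorsal library. The family mir-2 had 23, 35, 26 and 33 reads and was not counted in any pair. Whether such reads come from the pig cannot be told from these tables, and no sequence of them is given.

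By list, the imprinted DLK1-DIO3 cluster supplied 10 of the 55 families (mir-154, mir-379, mir-329, mir-544, mir-368, mir-485, mir-412, mir-541, mir-431 and mir-668) and 53.97% of their reads. None of the 10 was counted in any pair, and their median log2 ratios were -0.03 and -0.12 for iron in ventral and dorsal hippocampus and 0.11 and 0.15 for dorsal against ventral in controls and after iron. Over all families tested these medians were 0.01, -0.04, -0.04 and -0.05. The neuron- or brain-enriched list supplied 9 (mir-488, mir-3065, mir-876, mir-873, mir-592, mir-3085, mir-346, mir-1251 and mir-1912) with 1.85% of the reads. Of these, 0 were counted for iron, 2 were lower in dorsal than in ventral controls and 1 after iron, where 4.37% of all families tested were lower in each of these region pairs. Of the 9 ratios of iron to control, 6 in ventral and 7 in dorsal hippocampus were below 1, against 47.1% and 53.9% of all families tested. Of those of dorsal to ventral in controls 6 were, against 54.4%. After iron, all 9 ratios of dorsal to ventral were below 1, as were 113 of the 206 families tested (54.9%), with a median log2 of -0.26 against -0.05. The list holds mir-3065, whose reads cannot be told apart from those of the oligodendrocyte miR-338-3p. Without it, 8 of 8 ratios were below 1, the median was -0.25, and the counts of 2 and 1 lower families were the same. The lists of testis and X-linked clusters and of the primate chromosome 19 and rodent Sfmbt2 clusters supplied 0 families.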

How the data were processed

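The data are small RNA libraries, 1 pool per region and treatment. The authors deposited estimated counts (reads per library, per the file headers) for annotated pig miRNAs and for conserved sequences. Reads had been divided between rows, since only 36.2% to 39.7% of the cells of the conserved table are exactly whole while its column totals are. The submitters' processing notes name cutadapt 1.2.2 and the builds Sscrofa 10.2 and susScr 3, and no aligner. Not used were 16 columns of per-sample values (RPM, and the table of predicted miRNAs).

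Rows were summed per family, sums were rounded for tests, and 206 families with at least 50 reads were compared. Libraries were scaled with TMM (edgeR 4.0.16) over all families. Ratios carry exact conditional binomial 95% intervals. The edgeR quasi-likelihood test used an additive model, checked on simulated data. DESeq2 1.42.0, limma 3.58.1 and other scalings and filters served as alternatives. The members and lists were chosen with earlier results of these data known. Families were named by a rule: the 15 with most reads, each counted in a pair, and those at the read minimum; other families and the arm shares were chosen after seeing the values. A count of 0 allows up to 3 reads, or 0.21 to 0.287 CPM.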

Additional observations from a re-analysis of the deposited data

Results flagged for a closer look

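In 3 of the 55 families (5.45%) the iron ratio ran in opposite directions in the 2 regions, where neither interval held 1 and the log2 ratios lay 1 or more apart. The same held for 9 of the 206 families tested (4.37%). With 1 pooled library per group this difference was not tested. For mir-3529, whose reads equal those of the miR-7 row it faces, the ratio was 0.610 in ventral and 1.30 in dorsal hippocampus, a difference of 1.10 on the log2 scale. The annotated miR-7 row ran the same way, with log2 ratios of -0.78 and 0.54. For mir-592 the ratios were 1.24 and 0.514, a difference of -1.27, and for mir-1260b they were 0.535 and 2.27, a difference of 2.08.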

How the results depend on the processing

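No paired analysis was possible because each group is 1 pooled library, beyond the additive edgeR fit, in which the treatment term also stands for the pool of animals that both regions share. The number of families, 55, fell to 41 with a minimum of 500 reads and did not move when identical rows were counted once. Scaled by total family reads, every log2 ratio of iron against control in dorsal hippocampus shifted by -0.13, and 4 families were counted there instead of 2: mir-33 (ratio 0.495) and mir-592 (0.470) joined. Over all 206 families, 2 were then counted higher and 7 lower (3.4%), and 66.0% of the ratios were below 1, against 53.9% with TMM. With the same scaling edgeR called 2 of the 55 families for region instead of 0, mir-1911 and mir-33, and 7 of all 206. Their log2 differences moved little, from -1.95 to -2.01 and from -1.02 to -1.08, while the prior degrees of freedom of the fit went from 1.999 to infinity; the cause was not tested. In dorsal against ventral hippocampus after iron, mir-1251 was also counted with this scaling (2.09-fold lower), and mir-1260b with TMM over the annotated table (2.02-fold higher). Over all 206 families, 10 were counted lower there with the former scaling and 2 higher with the latter. A minimum of 10 CPM in at least 1 library, like that of 500 reads, took the counts of iron against control in ventral (1) and dorsal (2) hippocampus and of dorsal against ventral in controls (6) to 0. Among the 37 families with no pig counterpart, an alternative added after seeing the data, the counts for iron were 0 in ventral and 1 in dorsal hippocampus. In these last settings fewer families are compared. Of the 12 ratios counted, all 12 stayed past the limits with either other scaling. Leaving out 1 library leaves 0 residual degrees of freedom, so it gave values with no test: the log2 of mir-33 then ranged from -0.88 to -0.57 for iron and from -1.18 to -0.86 for region, and that of mir-592 from -0.96 to 0.31 and from -1.05 to 0.22. Each of these values is the log2 ratio of the pair of libraries left whole, so it adds no check beyond the pairwise ratios. Depth limits the families under 500 reads: the interval of mir-1911 for dorsal against ventral after iron ran from 2.40-fold to 12.5-fold lower.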
